A study of Mus musculus with 112 samples.

Results

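The 10 genes described here, Ddx4, Mael, Tdrd1, Tdrd5, Tdrd9, Tdrd12, Piwil2, Mov10l1, Asz1 and Rnf17, encode proteins of the PIWI-interacting RNA (piRNA) pathway. They were taken by name from the gene rows of every library, 10 of the 25209 genes counted, and each has a row in every library. RNA-seq had been performed on V6.5 mouse embryonic stem cells (ESCs) grown in medium with 2 kinase inhibitors and LIF, and on cells differentiated from them. The study asked how the histone demethylase LSD1 and its CoREST scaffold proteins RCOR1 and RCOR2 act in ESCs and in differentiation, and whether the catalytic activity of LSD1 is needed.

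All lines derive from the V6.5 parent. In ESCs, 6 LSD1 KO, 4 LSD1 CI (catalytically inactive LSD1), 4 RCOR1 KO, 4 RCOR2 KO, 4 RCOR1/2 DKO, 2 MLL4 KO, 4 MLL4 KO;LSD1 KO and 4 MLL4 KO;LSD1 CI libraries stood beside 11 WT libraries. MLL4 is a histone H3 lysine methyltransferase of enhancers, encoded by Kmt2d. Embryoid bodies (EBs), aggregates that differentiate without added lineage factors, were grown for 6 days from LSD1 KO (2 libraries), LSD1 CI (4), RCOR1 KO (4), RCOR2 KO (2), RCOR1/2 DKO (4) and WT (7) cells. An HA-tagged LSD1 transgene driven by doxycycline (DOX) was placed in LSD1 KO ESCs (LSD1Res) and in RCOR1/2 DKO ESCs (DKO + LSD1), each with 4 DOX and 4 noDOX libraries. LSD1 KO ESCs without the transgene gave 2 DOX and 2 noDOX libraries. A485, an inhibitor of the acetyltransferases p300 and CBP, or its solvent DMSO was given to LSD1 KO cells as ESCs, as EBs, during 4 days of serum (FBS) differentiation and during 2 days of conversion into epiblast-like cells (EpiLCs), with 2 libraries per group. DMSO-treated WT cells in EB, FBS and EpiLC culture, and DMSO-treated LSD1 CI cells in FBS and EpiLC culture, had 2 libraries each. These make 34 groups.

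The piRNA pathway silences transposons in germ cells. PIWI proteins carry small guide RNAs cut from long precursor transcripts, and they meet helicases and Tudor-domain proteins in cytoplasmic granules (nuage) that lie against mitochondria. Its genes are best known from the male germ line and are kept silent in most somatic cells, in part by promoter DNA methylation and by repressor complexes that include E2F6, MGA and MAX.

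Library totals ranged between 17.2 and 58.2 in units of 1000000 counts (median 39.0). Kdm1a, which encodes LSD1, had 3.43 to 6.85 counts per 1000000 counts of the library (CPM) in LSD1 KO ESCs and 141 to 226 CPM in WT ESCs, and 7.13 and 7.23 CPM in LSD1 KO EBs against 179 to 224 CPM in WT EBs. In LSD1 CI ESCs Kdm1a had 173 to 182 CPM, within the WT ESC range. In LSD1 CI EBs it had 133 to 153 CPM, below every WT EB library. LSD1 CI FBS libraries both had 130 CPM, against 197 and 206 CPM in WT. LSD1 CI EpiLCs had 111 and 107 CPM, against 170 CPM in both WT libraries. The part of these lower Kdm1a levels in the LSD1 CI results was not tested. Rcor1 had 2.15 to 3.93 CPM and Rcor2 2.55 to 3.67 CPM in RCOR1/2 DKO ESCs, against 36.4 to 56.9 and 87.4 to 104 CPM in WT ESCs. In the 2 libraries labelled RCOR2 KO EB, Rcor2 remained at 44.6 and 53.8 CPM, against 121 to 153 CPM in WT EBs. Kmt2d had 222 and 228 CPM in MLL4 KO ESCs and 154 to 204 CPM in MLL4 KO;LSD1 KO ESCs, against 307 to 746 CPM in WT ESCs. The MLL4 KO;LSD1 CI ESC libraries were split, with 197 and 211 CPM in libraries 1 and 2. Libraries 3 and 4 of that group had 344 and 398 CPM, within the WT ESC range. The LSD1 KO ESC libraries 1 to 6 and WT ESC libraries 1 to 3 (9 libraries) held no counts on unplaced contigs and form an alignment batch. The clone behind each library was not given in the sources used here, so the p-values measure the spread between these libraries. Every "rose" or "fell" below means an edgeR quasi-likelihood adjusted p below 0.01 with an absolute log2 fold change above 1, and the fold changes are log2 ± SE.

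In WT ESCs, several of the 10 genes were transcribed. On the length-corrected scale, Tdrd12, a Tudor and helicase-type protein, was highest at 26.5 ± 8.60 RPKM (SD, n = 11), followed by Rnf17, a Tudor protein also called TDRD4, at 14.3 ± 3.11 RPKM. Ddx4 (the VASA helicase of nuage) had 2.52 RPKM, Piwil2 (the PIWI protein MILI) 1.46 RPKM and Tdrd5 (a Tudor protein of germ granules) 1.27 RPKM, and these 3 lay close together. Mael (a nuage protein) had 0.738 RPKM and Mov10l1 (the helicase that feeds precursors to piRNA processing) 0.651 RPKM. Tdrd1 (a Tudor partner of MILI), Tdrd9 (a Tudor helicase) and Asz1 (GASZ, a scaffold of the granules at mitochondria) were under 0.1 RPKM. Over the 34 groups, Tdrd5, Tdrd12, Piwil2 and Rnf17 had a mean of at least 1 CPM in all 34, Ddx4 in 32, Mov10l1 in 29, Mael in 25, Tdrd1 in 19, Asz1 in 10 and Tdrd9 in 2.

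In WT EBs most of these transcripts were low. Of the 9 members tested between WT EBs and WT ESCs, 6 fell and 1 rose, where 36.1% of all 15647 genes tested passed in either direction and 15.5% fell and 20.6% rose. Tdrd12 had 0.502 to 7.68 CPM in WT EBs (median 1.84, n = 7) and 89.4 to 251 CPM in WT ESCs (median 166, n = 11). The 2 ranges did not overlap, and Tdrd12 fell by 6.11 ± 0.46 (adjusted p = 4.96e-10). Mov10l1 had 0.0531 to 0.182 CPM in WT EBs (median 0.0738) and 1.62 to 4.84 CPM in WT ESCs (median 2.39). It fell by 4.93 ± 0.37, again without overlap. Mael fell by 5.24 ± 0.70, Rnf17 by 3.45 ± 0.19, Ddx4 by 3.27 ± 0.32 and Piwil2 by 2.58 ± 0.24. Tdrd5 went the other way, with 7.39 to 17.0 CPM in WT EBs (median 10.8) and 2.29 to 6.64 CPM in WT ESCs (median 4.70), a rise of 1.22 ± 0.20. Tdrd1 (-0.17 ± 0.46) and Tdrd9 (-0.71 ± 0.50) did not pass, and Asz1 was too low to be tested. Among other piRNA pathway genes, 9 of 17 tested fell and 4 rose, and among other germ cell genes 17 of 22 fell and 1 rose. The median of all genes was -0.01.

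The promoters are shown for 5 members that the results below turn on. Ddx4, Mael, Tdrd1 and Mov10l1 all rose in LSD1 KO, RCOR2 KO and RCOR1/2 DKO EBs. Tdrd12 moved in opposite directions in different cultures under A485. The windows run from 250 bases before to 50 bases after the RefSeq start (GRCm38.p6 table) and are written along the gene's strand. Tdrd1 has 3 windows in that table and Tdrd12 has 2, and the first is shown. Each was found once in mm9, the build of the counts, at the mm9 positions that follow: Ddx4 at chr13:113442469-113442768, minus strand; Mael at chr1:168168826-168169125, minus strand; Tdrd1 at chr19:56900449-56900748, plus strand; Mov10l1 at chr15:88813174-88813473, plus strand; Tdrd12 at chr7:36322685-36322984, minus strand. Capitals mark CACGTG, the E-box type bound by MAX and its partners, and TCCCGC or its reverse complement GCGGGA, the E2F6-type element.
Ddx4: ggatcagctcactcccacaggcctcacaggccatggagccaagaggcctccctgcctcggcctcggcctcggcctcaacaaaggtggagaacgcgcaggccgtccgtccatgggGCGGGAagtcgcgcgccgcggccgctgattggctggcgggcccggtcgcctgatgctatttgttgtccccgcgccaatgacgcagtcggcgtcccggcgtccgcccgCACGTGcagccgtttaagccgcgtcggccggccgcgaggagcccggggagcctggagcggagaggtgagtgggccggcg
Mael: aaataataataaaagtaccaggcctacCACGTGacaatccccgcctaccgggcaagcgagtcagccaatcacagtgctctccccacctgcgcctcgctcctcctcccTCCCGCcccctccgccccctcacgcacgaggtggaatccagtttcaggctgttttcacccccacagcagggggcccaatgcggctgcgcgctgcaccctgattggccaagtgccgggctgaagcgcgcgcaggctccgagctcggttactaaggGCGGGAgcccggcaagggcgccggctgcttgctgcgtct
Tdrd1: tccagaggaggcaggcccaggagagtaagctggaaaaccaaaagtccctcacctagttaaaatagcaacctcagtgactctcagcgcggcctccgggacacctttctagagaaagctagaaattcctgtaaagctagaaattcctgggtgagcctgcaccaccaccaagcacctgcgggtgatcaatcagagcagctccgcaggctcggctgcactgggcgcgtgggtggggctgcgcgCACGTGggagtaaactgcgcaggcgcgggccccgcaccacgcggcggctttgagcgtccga
Mov10l1: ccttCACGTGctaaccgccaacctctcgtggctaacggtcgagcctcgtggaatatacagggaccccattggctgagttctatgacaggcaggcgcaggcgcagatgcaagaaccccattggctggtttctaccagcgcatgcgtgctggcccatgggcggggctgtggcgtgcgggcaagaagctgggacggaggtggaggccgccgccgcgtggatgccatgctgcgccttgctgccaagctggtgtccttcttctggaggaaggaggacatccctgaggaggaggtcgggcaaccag
Tdrd12: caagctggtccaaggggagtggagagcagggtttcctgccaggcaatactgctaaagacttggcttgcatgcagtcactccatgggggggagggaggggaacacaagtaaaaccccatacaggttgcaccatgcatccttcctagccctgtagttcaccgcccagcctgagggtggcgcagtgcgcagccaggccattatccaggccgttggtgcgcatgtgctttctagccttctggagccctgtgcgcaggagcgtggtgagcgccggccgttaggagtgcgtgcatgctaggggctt

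Of the 10 genes, 8 were matched in the RefSeq promoter table (Piwil2 and Rnf17 were not). CACGTG, which reads the same on both strands, was present in 5 of the 8 windows (62.5%), those of Ddx4, Mael, Tdrd1, Tdrd9 and Mov10l1. It was present in 8.09% of all 27025 genes of the table, where any window of a gene counted. It lay 29 bases before the start in Ddx4, 11 in Tdrd1, 223 in Mael, 246 in Mov10l1, and 165 and 95 in Tdrd9. TCCCGC, searched on both strands, was present in 3 of the 8 windows (37.5%), those of Ddx4, Mael and Tdrd5, against 22.0% of all genes. The 2 motifs do not overlap in these windows. Among 16 other piRNA pathway genes 31.2% held CACGTG, and among 23 other germ cell genes 34.8% held it. The 8 windows had a median of 20 CG dinucleotides, against 7 over the first windows of all genes.

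Loss of LSD1 raised 5 of the 10 transcripts in EBs. Ddx4, Mael, Tdrd1, Mov10l1 and Rnf17 rose in LSD1 KO EBs over WT EBs and none of the 10 fell, where 13.7% of the 17928 genes tested passed and 8.28% rose. The median over the 10 was 3.30, against 0.02 over all genes.

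Ddx4 had 15.6 and 13.8 CPM in LSD1 KO EBs, against 0.391 to 1.35 CPM (median 0.828, n = 7) in WT EBs. The groups did not overlap, and the change was 4.14 ± 0.36 (adjusted p = 4.88e-08). Mov10l1 had 3.36 and 3.29 CPM in LSD1 KO EBs, against 0.0531 to 0.182 CPM (median 0.0738) in WT EBs. Its change was 5.09 ± 0.64 (adjusted p = 4.48e-06). Mael had 4.04 and 1.87 CPM in LSD1 KO EBs, against 0 to 0.0901 CPM in WT EBs, and the change was 6.46 ± 0.74. The median WT EB library held no Mael count.

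Tdrd1 had 5.92 and 4.25 CPM in LSD1 KO EBs, against 0.184 to 0.642 CPM (median 0.486) in WT EBs, a rise of 3.44 ± 0.34. Rnf17 had 94.0 and 87.4 CPM in LSD1 KO EBs, against 4.67 to 10.9 CPM (median 7.08) in WT EBs, a rise of 3.58 ± 0.21. All 5 genes were therefore above every WT EB library in both LSD1 KO libraries. Piwil2, with 4.01 and 2.70 CPM in LSD1 KO EBs and 1.42 to 1.94 CPM in WT EBs, came to 0.98 ± 0.23 and stayed just under the fold limit. Tdrd12 (1.74 ± 0.68, adjusted p = 0.0506) and Asz1 (3.16 ± 1.19, adjusted p = 0.0409) did not pass, nor did Tdrd5 (0.46 ± 0.24) and Tdrd9 (0.78 ± 0.71).

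Part of the related genes also rose. Of 20 other piRNA pathway genes tested in LSD1 KO EBs, 8 rose and none fell (median 1.42), among them Piwil1 (MIWI) with 6.74 ± 0.95, Dnmt3l with 3.73 ± 0.60 and Tex15 with 2.42 ± 0.29. Of 26 other germ cell genes, 15 rose and none fell (median 2.89), including Meioc, a regulator of meiotic transcripts, with 4.57 ± 0.36, and Sohlh2, a transcription factor of early germ cells, with 6.90 ± 0.71. Of 17 listed repressors of germline genes, Kdm1a alone fell and none rose.

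Other cell states moved along with these changes. The summed CPM of 8 naive ESC markers was 576 and 650 in LSD1 KO EBs, against 48.8 to 215 in WT EBs and 3450 to 4420 in WT ESCs. Of the 8, 3 rose in LSD1 KO EBs. Pou5f1, Nanog and Sox2 are among the 8 and made up most of the LSD1 KO sum (means of 240, 223 and 81.3 CPM). Pou5f1 also averaged 411 CPM in DMSO-treated WT EpiLCs, so the sum does not mark the naive state alone. Esrrb, Klf2 and Zfp42 had higher means in LSD1 KO than in WT EBs. Klf4 (6.88 against 7.4 CPM) and Tfcp2l1 (13.2 against 20.8 CPM) did not. The sum of 4 mesoderm markers was 19.6 and 21.4 CPM in LSD1 KO EBs, against 72.9 to 617 CPM in WT EBs. The sum of 3 endoderm markers was 24.6 and 28.2 CPM in LSD1 KO EBs, against 195 to 313 CPM in WT EBs. The sum of 3 ectoderm markers was 196 and 226 CPM in LSD1 KO EBs, against 27.7 to 81.6 CPM in WT EBs, and 2 of the 3 rose. The part of these differences in the piRNA gene results was not tested. In these bulk libraries, more cells of a type and more RNA per cell cannot be told apart. Of 8 markers of differentiating and meiotic germ cells, 3 of 5 tested rose, with sums of 15.1 and 23.0 CPM in LSD1 KO EBs, against 0.335 to 13.0 CPM in WT EBs. Tnp1, Prm1 and Prm2, which mark late spermatids, were at 0 in both LSD1 KO EB libraries. The sum of 7 primordial germ cell markers was 70.1 and 88.4 CPM in LSD1 KO EBs, below every WT EB library (median 136 CPM, highest 171 CPM). Of the 7, 2 fell and none rose. The lower sum came from Kit (mean 38.3 against 81.2 CPM in WT EBs) and Prdm1 (14.3 against 48.4 CPM). Dppa3 (9.46 against 1.34 CPM), Tfap2c (12.4 against 4.39 CPM), Prdm14, Dnd1 and Nanos3 had higher means in LSD1 KO EBs.

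**Figure D1:**
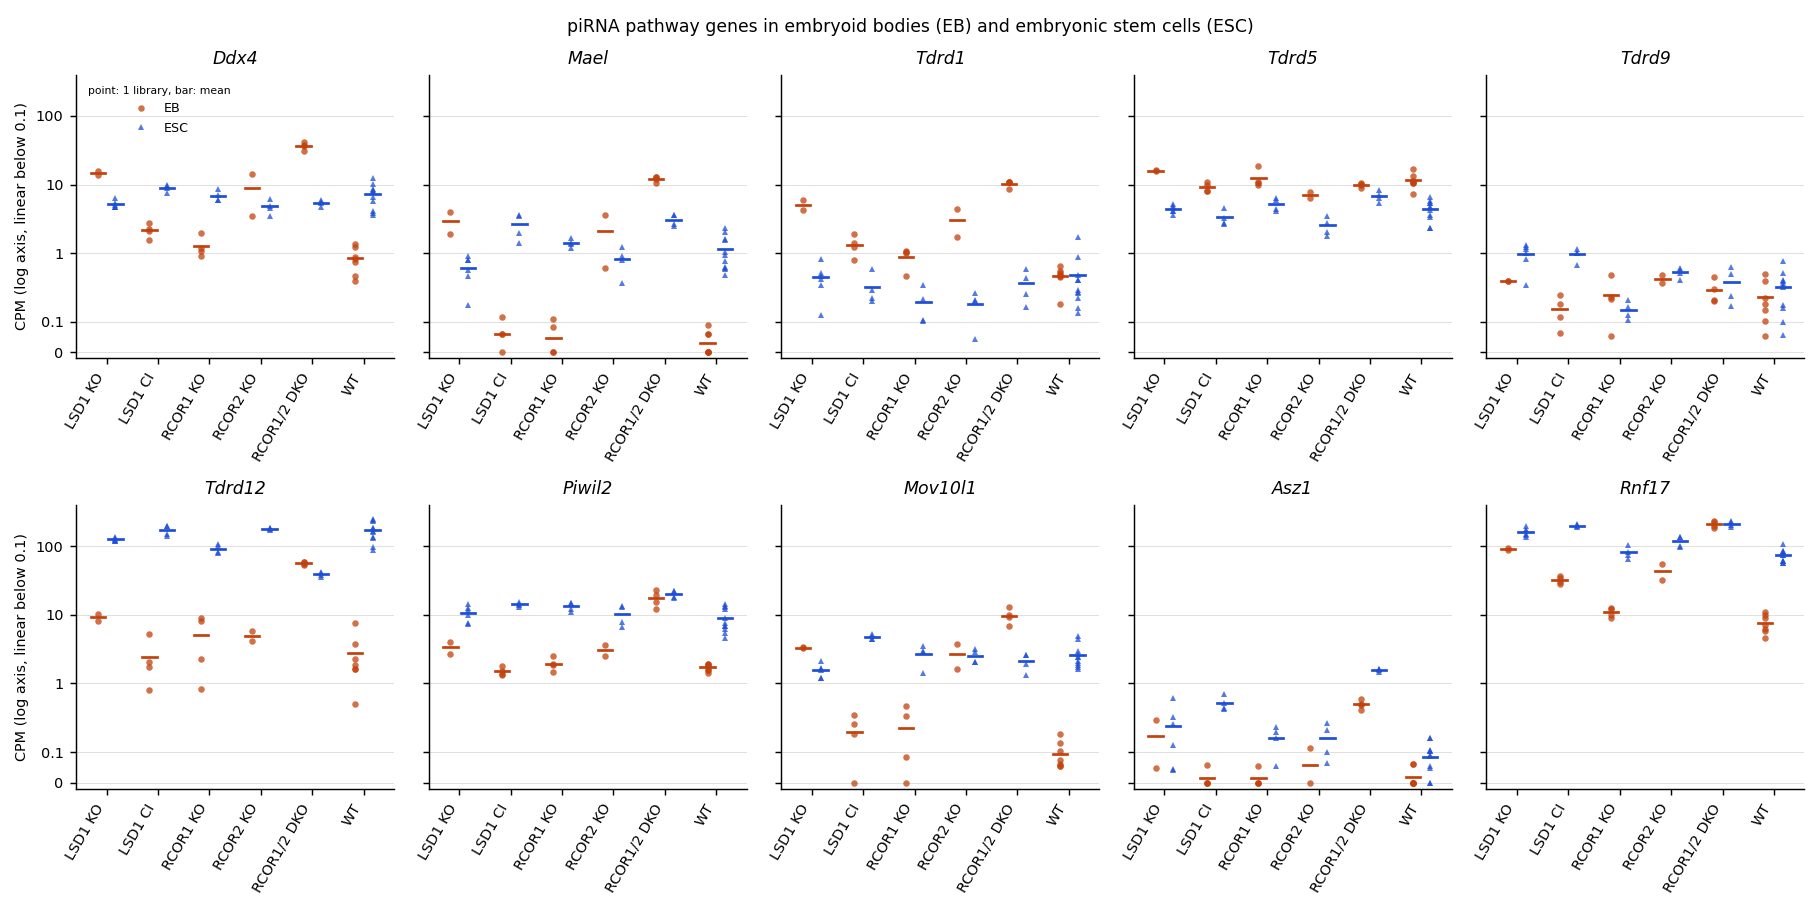
CPM of the 10 genes (log scale, linear below 0.1 CPM) in EBs (circles) and ESCs (triangles). The groups are LSD1 KO, LSD1 CI, RCOR1 KO, RCOR2 KO, RCOR1/2 DKO and WT. MLL4 mutants, transgene lines and the DMSO, A485 and DOX groups are not shown. Each point is a library and each bar a group mean. Ddx4, Mael, Tdrd1, Mov10l1 and Rnf17 lie above all WT EB libraries in LSD1 KO and RCOR1/2 DKO EBs, whereas Tdrd5 overlaps WT EBs.

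Fewer members rose in LSD1 CI than in LSD1 KO EBs, and Kdm1a was also lower in LSD1 CI EBs than in WT EBs. Of the 10 genes, Ddx4, Tdrd1 and Rnf17 rose in LSD1 CI EBs over WT EBs and none fell, where 2.54% of all genes passed and 0.993% rose. Rnf17 had 34.7, 29.9, 36.7 and 27.7 CPM in LSD1 CI EBs, against 4.67 to 10.9 CPM in WT EBs, without overlap (2.13 ± 0.18, adjusted p = 1.23e-07). Ddx4 had 2.76, 2.26, 1.55 and 2.12 CPM in LSD1 CI EBs, against 0.391 to 1.35 CPM in WT EBs (1.43 ± 0.33), and Tdrd1 changed by 1.55 ± 0.30. Mael had 0 to 0.116 CPM in LSD1 CI EBs and 0 to 0.0901 CPM in WT EBs (0.98 ± 0.98, adjusted p = 0.552), so its groups overlapped. Fitted without the other genotypes, Rnf17 alone was called, as it was without LSD1 CI library 1. Leaving out any of the 4 LSD1 CI libraries put Ddx4 at 1.30 to 1.55 with adjusted p of 0.0104 to 0.0289.

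The 2 mutants were also compared directly. Of the 10 genes 6 differed, all higher in LSD1 KO than in LSD1 CI EBs, where 11.4% of all genes passed and 7.37% were higher. They were Mael (5.48 ± 0.86), Mov10l1 (4.01 ± 0.74), Ddx4 (2.71 ± 0.41), Tdrd1 (1.89 ± 0.39), Rnf17 (1.45 ± 0.24) and Piwil2 (1.12 ± 0.26). The naive ESC marker sum was 576 and 650 CPM in LSD1 KO EBs, against 64.8 to 157 CPM in LSD1 CI EBs, and its part in this difference was not tested. Asz1 rested on 14 counts in LSD1 KO EBs and 2 counts in LSD1 CI EBs, a ratio of 11.1 with a 95% counting interval of 2.56 to 101. The interval treats each count as independent, although mates appear to have been counted separately, so it is too narrow.

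In EBs without either scaffold protein more members were called than in any other EB mutant. The groups differ in size (4 RCOR1/2 DKO, 2 LSD1 KO and 2 RCOR2 KO libraries), so the numbers of calls are not strictly comparable. By Western blot, the study reported much less LSD1 protein in ESCs lacking both scaffold proteins than in WT ESCs. Kdm1a RNA had 208 to 235 CPM in RCOR1/2 DKO EBs, against 179 to 224 CPM in WT EBs. The part of LSD1 protein in the EB and ESC results of this mutant was not tested. In RCOR1/2 DKO EBs 8 of the 10 genes rose over WT EBs and none fell, where 26.4% of all genes passed and 14.1% rose. The median over the 10 was 4.54, against -0.03 over all genes.

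Ddx4 had 30.5, 37.8, 37.0 and 41.5 CPM in RCOR1/2 DKO EBs, against 0.391 to 1.35 CPM in WT EBs (5.43 ± 0.33, adjusted p = 3.54e-11). Mael had 10.4, 13.0, 12.8 and 12.0 CPM in RCOR1/2 DKO EBs, against 0 to 0.0901 CPM in WT EBs (8.46 ± 0.69). Rnf17 had 187, 236, 224 and 199 CPM in RCOR1/2 DKO EBs, against 4.67 to 10.9 CPM in WT EBs (4.77 ± 0.19). None of these groups overlapped, and the lowest DKO library was far above the highest WT library for each gene.

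Mov10l1 had 6.89, 9.39, 9.89 and 12.8 CPM in RCOR1/2 DKO EBs, against at most 0.182 CPM in WT EBs (6.61 ± 0.60). Tdrd12 had 55.2, 52.9, 58.4 and 57.9 CPM in RCOR1/2 DKO EBs, against 0.502 to 7.68 CPM in WT EBs (4.31 ± 0.58). Piwil2 had 12.3, 15.3, 22.9 and 19.5 CPM in RCOR1/2 DKO EBs, against 1.42 to 1.94 CPM in WT EBs (3.33 ± 0.19). These 3 genes also did not overlap between the groups. Tdrd1 rose by 4.43 ± 0.31 and Asz1, which had at most 0.0613 CPM in WT EBs, by 4.66 ± 1.01. Tdrd5 (-0.25 ± 0.19) and Tdrd9 (0.33 ± 0.59) did not pass. By length-corrected level, Rnf17 came first in RCOR1/2 DKO EBs at 41.1 RPKM, then Ddx4 at 12.9, Tdrd12 at 8.74 and Mael at 7.79 RPKM, whereas Tdrd5 at 3.33 RPKM and Rnf17 at 1.49 RPKM led in WT EBs.

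Of 20 other piRNA pathway genes, 12 rose and 1 (Tdrd7, -2.16 ± 0.24) fell in RCOR1/2 DKO EBs, with Piwil1 at 8.78 ± 0.89, Dnmt3l at 6.39 ± 0.58 and Morc1 at 6.01 ± 0.64. Of 26 other germ cell genes, 24 rose and none fell (median 4.78). The naive ESC marker sum was 1220 to 1340 CPM in RCOR1/2 DKO EBs, against 48.8 to 215 CPM in WT EBs. The mesoderm sum was 4.24 to 5.97 CPM in RCOR1/2 DKO EBs, against 72.9 to 617 CPM in WT EBs. The ectoderm sum was 152 to 177 CPM in RCOR1/2 DKO EBs, against 27.7 to 81.6 CPM in WT EBs, and all 3 markers rose. The endoderm sum was 44.0 to 62.6 CPM in RCOR1/2 DKO EBs, against 195 to 313 CPM in WT EBs, and all 3 fell. Of the 7 primordial germ cell markers 4 rose (Dppa3, Prdm14, Tfap2c and Nanos3) and 1 fell (Prdm1), with a median sum of 187 CPM (lowest 158 CPM) in RCOR1/2 DKO EBs and a median sum of 136 CPM in WT EBs (highest 171 CPM). Of the 8 markers of differentiating and meiotic germ cells 4 of 5 tested rose, with sums of 59.9 to 83.1 CPM in RCOR1/2 DKO EBs, against 0.335 to 13.0 CPM in WT EBs, and Prm1 and Prm2 were at 0 in all 4 RCOR1/2 DKO EB libraries. The part of these differences in the result was not tested.

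The single scaffold mutants differed from each other in the number of calls. In RCOR2 KO EBs, set against the WT EB libraries that also served for the other EB mutants, 5 genes rose (5.28% of all genes passed and 2.18% rose): Mael by 5.90 ± 0.75, Mov10l1 by 4.74 ± 0.65, Ddx4 by 3.34 ± 0.36, Tdrd1 by 2.66 ± 0.35 and Rnf17 by 2.45 ± 0.21. The 2 libraries were far apart, with Ddx4 at 3.45 and 14.1 CPM, Mael at 0.606 and 3.56 CPM and Rnf17 at 31.7 and 55.0 CPM in RCOR2 KO EBs, all above the highest WT EB values of 1.35, 0.0901 and 10.9 CPM. Without RCOR2 KO library 2, 3 members were called. The mesoderm marker sum was 6.72 and 13.5 CPM in RCOR2 KO EBs, against 72.9 to 617 CPM in WT EBs, and 3 of 4 markers fell. The endoderm sum was 71.4 and 95.7 CPM in RCOR2 KO EBs, against 195 to 313 CPM in WT EBs, and all 3 fell. The ectoderm sum was 166 and 186 CPM in RCOR2 KO EBs, against 27.7 to 81.6 CPM in WT EBs, and 2 of 3 rose. The naive ESC sum was 259 and 350 CPM in RCOR2 KO EBs, against 48.8 to 215 CPM in WT EBs, and none of its 8 markers passed. The part of these marker differences was not tested. By Western blot, the study reported less LSD1 protein in RCOR2 KO than in WT ESCs. Kdm1a RNA had 233 and 270 CPM in RCOR2 KO EBs, against 179 to 224 CPM in WT EBs. The part of LSD1 protein was not tested either. In RCOR1 KO EBs edgeR called none of the 10 genes (0.00558% of all genes passed), with 2 at an unadjusted p below 0.05 (Tdrd1 and Rnf17, both upward) and none called by DESeq2. The difference between RCOR2 KO and RCOR1 KO EBs was not tested.

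**Figure D2:**
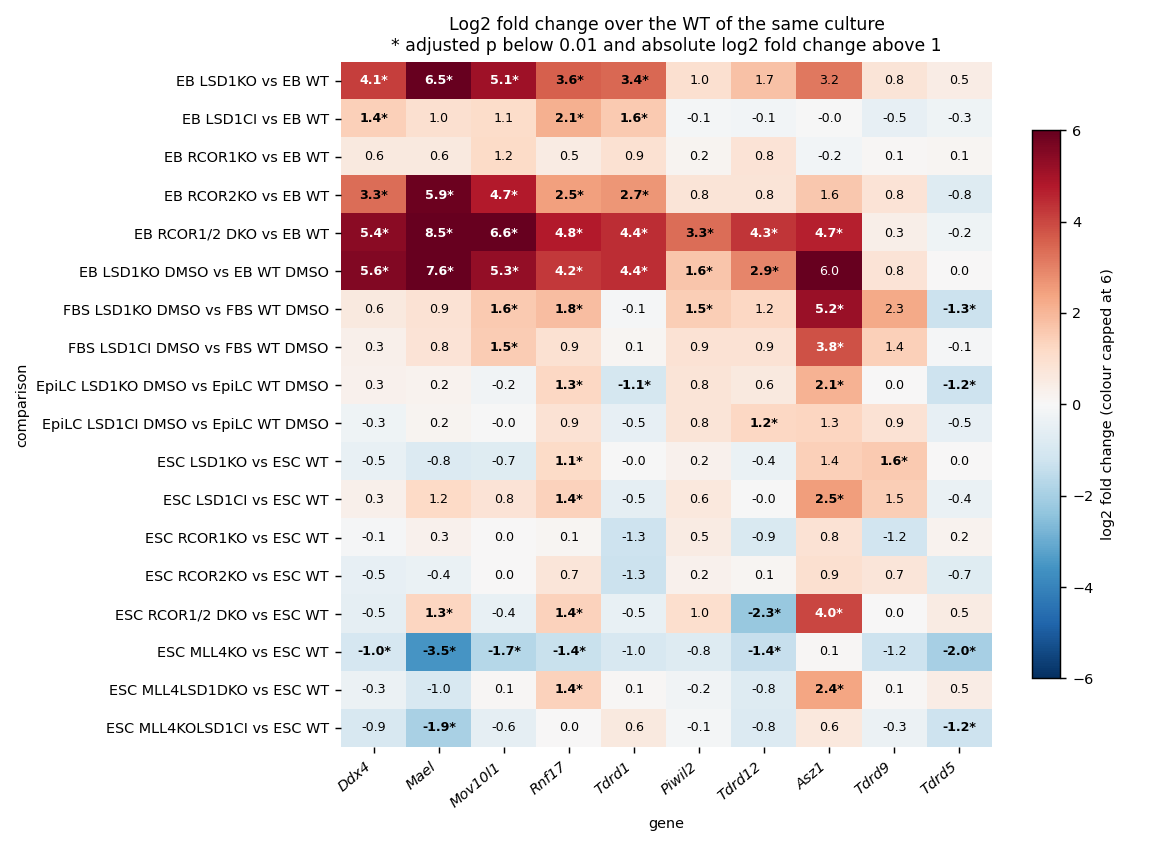
Heat map of the edgeR log2 fold change over the WT of the same culture, with a comparison per line and a gene per column; the number is the fold change, the colour is capped at 6 in either direction and an asterisk marks a change that passed the test. The EB changes of LSD1 KO and RCOR1/2 DKO reach 6.46 and 8.46 (Mael), whereas in ESCs the same gene is at -0.84 and 1.31.

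In ESCs the same mutations changed fewer of the 10 genes. In LSD1 KO ESCs 2 rose over WT ESCs and none fell, where 21% of the 17603 genes tested passed and 10.2% rose. Counted in either direction, the member share was not above that of all genes. The upward share rests on these 2 calls. Rnf17 had 136 to 197 CPM in LSD1 KO ESCs (median 161, n = 6), against 57.3 to 109 CPM in WT ESCs (median 73.9, n = 11), without overlap (1.15 ± 0.10, adjusted p = 3.04e-12). Tdrd9 had 0.343 to 1.30 CPM in LSD1 KO ESCs (median 1.09), against 0.0581 to 0.757 CPM in WT ESCs (median 0.327), with overlap (1.57 ± 0.38). With a term for the alignment batch, or against the WT libraries of that batch alone, Tdrd9 came to 0.97 and was not called. Mov10l1 (-0.71 ± 0.25), Mael (-0.84 ± 0.35) and Ddx4 (-0.46 ± 0.18) had values below 0 and did not pass. Other LSD1 KO ESC libraries, with DMSO or noDOX (n = 2 each), did not share these lower levels. Mean Mael there was 2.03 and 1.67 CPM, against 0.617 CPM above and 1.14 CPM in WT ESCs. Mean Mov10l1 was 3.84 and 2.97 CPM, against 1.57 and 2.64 CPM. Mean Ddx4 was 7.21 and 7.85 CPM, against 5.12 and 7.19 CPM. These sets were not compared with a test.

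In LSD1 CI ESCs Asz1 (2.51 ± 0.59) and Rnf17 (1.40 ± 0.12) rose and none fell (3.24% of all genes passed and 2.08% rose). Rnf17 had 200, 210, 191 and 196 CPM in LSD1 CI ESCs, above the WT ESC maximum of 109 CPM, and Asz1 had 0.420, 0.526, 0.691 and 0.440 CPM in LSD1 CI ESCs, above the WT ESC maximum of 0.160 CPM. Without LSD1 CI library 3, 1 member was called. Between the 2 mutants, Mael (-2.02 ± 0.42) and Mov10l1 (-1.55 ± 0.30) were lower in LSD1 KO than in LSD1 CI ESCs, the opposite direction to the EB comparison (16% of all genes passed and 7.95% were lower). With the alignment batch term these came to -0.84 and -1.34 and neither was called.

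RCOR1/2 DKO ESCs had 3 members up and 1 down against WT ESCs (17.7% of all genes passed, 11.3% upward and 6.32% downward). Asz1 had 1.64, 1.62, 1.59 and 1.49 CPM in RCOR1/2 DKO ESCs, against 0 to 0.160 CPM in WT ESCs (4.01 ± 0.57). Tdrd12 had 38.4, 35.7, 40.9 and 41.5 CPM in RCOR1/2 DKO ESCs, against 89.4 to 251 CPM in WT ESCs, and fell by 2.27 ± 0.20 (adjusted p = 2.72e-12). Neither gene overlapped between the groups. Rnf17 rose by 1.39 ± 0.12 and Mael by 1.31 ± 0.36, and Mael was at 1.06 with an adjusted p of 0.0118 with the alignment batch term. Against RCOR2 KO ESCs, RCOR1/2 DKO ESCs had Asz1 (3.07 ± 0.77), Mael (1.70 ± 0.47) and Tdrd5 (1.22 ± 0.26) higher and Tdrd12 (-2.40 ± 0.22) lower (14.9% of all genes passed, 7.91% upward and 7% downward). The single mutants had no member called in ESCs. RCOR1 KO had 4 at an unadjusted p below 0.05 (1 up and 3 down, 0.142% of all genes passed), RCOR2 KO also had 4 (1 up and 3 down, 3.85% passed), and DESeq2 called none in either.

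The difference between cultures was tested as an interaction. For LSD1 KO the ESC side used the 6 libraries of the alignment batch, and not those with DMSO or noDOX. The LSD1 KO effect in EBs minus that in ESCs passed the test for 6 members, all upward (18.9% of all genes passed and 11.1% upward): Mael by 7.26 ± 0.79, Mov10l1 by 5.76 ± 0.60, Ddx4 by 4.55 ± 0.40, Tdrd1 by 3.40 ± 0.67, Rnf17 by 2.38 ± 0.23 and Tdrd12 by 2.10 ± 0.54. For RCOR1/2 DKO 7 members passed, all upward (20.5% of all genes passed and 9.68% upward), with Mael at 7.06 ± 0.81, Mov10l1 at 6.97 ± 0.63, Tdrd12 at 6.49 ± 0.55 and Ddx4 at 5.88 ± 0.42. For LSD1 CI edgeR called none (3.25% of all genes passed). There 5 members had an unadjusted p below 0.05, 3 upward and 2 downward, and DESeq2 called none.

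Deletion of MLL4 alone lowered members in ESCs. In MLL4 KO ESCs 6 of the 10 genes fell against WT ESCs and none rose, where 10.7% of all genes passed and 6.85% fell. Tdrd5 had 1.32 and 1.05 CPM in MLL4 KO ESCs, against 2.29 to 6.64 CPM in WT ESCs (-1.97 ± 0.34, adjusted p = 2.25e-05). Rnf17 had 27.5 and 33.7 CPM in MLL4 KO ESCs, against 57.3 to 109 CPM in WT ESCs (-1.35 ± 0.19). Mael had 0.202 and 0 CPM in MLL4 KO ESCs, which are 4 and 0 counts, against 0.476 to 2.29 CPM in WT ESCs (-3.55 ± 0.77). For these 3 genes both MLL4 KO libraries lay under every WT ESC library. Mov10l1 (-1.70 ± 0.44), Tdrd12 (-1.37 ± 0.25) and Ddx4 (-1.03 ± 0.30) also fell. Of 19 other piRNA pathway genes 5 fell and none rose, including Dnmt3l (-6.49 ± 0.95), and of 25 other germ cell genes 7 fell and none rose, including Dazl (-2.19 ± 0.31). The endoderm marker sum was 0.81 and 1.25 CPM in MLL4 KO ESCs, against 8.55 to 20.5 CPM in WT ESCs, where Cldn6 alone of 3 fell. The ectoderm sum was 9.25 and 12.7 CPM in MLL4 KO ESCs, against 26.0 to 65.8 CPM in WT ESCs, where Nes alone of 3 fell. None of the 8 naive ESC markers passed in MLL4 KO ESCs. In MLL4 KO;LSD1 KO ESCs the endoderm sum was 1.06 to 2.31 CPM and the ectoderm sum 4.07 to 7.70 CPM, and in MLL4 KO;LSD1 CI ESCs they were 0.777 to 3.32 CPM and 10.2 to 13.2 CPM. The part of these differences in the member results was not tested. The MLL4 libraries were among the shallow ones. Against the 2 WT ESC libraries of like depth, a choice made after seeing the data, 5 members were called and Ddx4 came to -0.93. Fitted with WT alone 2 members were called, and 3 without MLL4 KO library 1.

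With LSD1 also deleted, Rnf17, Tdrd5 and Mov10l1 were higher than in MLL4 KO ESCs. In MLL4 KO;LSD1 KO ESCs Rnf17 had 235, 220, 159 and 196 CPM, against 27.5 and 33.7 CPM in MLL4 KO ESCs, without overlap (2.74 ± 0.21, adjusted p = 7.61e-13). Tdrd5 had 5.38, 4.93, 6.72 and 7.99 CPM in MLL4 KO;LSD1 KO ESCs, against 1.32 and 1.05 CPM in MLL4 KO ESCs (2.43 ± 0.37), and Mov10l1 rose by 1.77 ± 0.47. These were the 3 members called (7.9% of all genes passed and 5.77% rose). Catalytically inactive LSD1 in the MLL4 KO background raised Rnf17 alone, to 62.3, 80.6, 72.0 and 92.1 CPM in MLL4 KO;LSD1 CI ESCs against 27.5 and 33.7 CPM in MLL4 KO ESCs (1.37 ± 0.20, 0.125% of all genes passed and 0.114% rose). This call was lost when those 2 groups were fitted alone and without MLL4 KO library 1. Kmt2d differed between the MLL4 KO;LSD1 CI libraries. Kdm1a had 136 to 145 CPM in them, against 172 and 186 CPM in MLL4 KO ESCs. The part of these levels in the results of this group was not tested. Rnf17 (1.38 ± 0.15) and Tdrd5 (1.71 ± 0.27) were higher in MLL4 KO;LSD1 KO than in MLL4 KO;LSD1 CI ESCs (8.17% of all genes passed and 5.84% were higher).

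Against WT ESCs, MLL4 KO;LSD1 KO ESCs had Asz1 (2.36 ± 0.61) and Rnf17 (1.39 ± 0.12) higher (14.2% of all genes passed and 8.59% rose), and 1 member was called without library 4 of that group. Against the 2 WT libraries of like depth Asz1 lost its call (3.08, adjusted p = 0.066) and Tdrd12 gained one at -1.18. MLL4 KO;LSD1 CI ESCs had Mael (-1.93 ± 0.48) and Tdrd5 (-1.24 ± 0.24) lower than WT ESCs (14.1% of all genes passed and 7.8% fell), and against the same 2 WT libraries Mael lost its call (-1.64) and Tdrd12 gained one (-1.25).

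No member was called lower when LSD1 was supplied with DOX. In LSD1Res ESCs Kdm1a had 980 to 2250 CPM with DOX and 10.8 to 38.1 CPM without DOX. These are RNA levels. By Western blot, the study reported less LSD1 protein in LSD1Res cells with DOX than in WT ESCs. Of the 10 genes edgeR called none (2.37% of all genes passed), with 5 at an unadjusted p below 0.05, 4 upward and 1 downward, and DESeq2 called 1. Tdrd1 had 2.26, 2.45, 2.86 and 2.45 CPM with DOX, against 0.855, 1.14, 1.40 and 0.622 CPM without DOX, without overlap (1.35 ± 0.34, adjusted p = 0.0125). With the replicate number as a block, which pairs these libraries, Tdrd1 was called at 1.39 (adjusted p = 0.000952). Rnf17, a member raised in LSD1 KO ESCs, had 197, 196, 126 and 159 CPM with DOX, against 193, 232, 129 and 143 CPM without DOX, and these overlapped (0.00 ± 0.17, adjusted p = 0.998).

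In DKO + LSD1 ESCs Kdm1a had 1830 to 6040 CPM with DOX and 253 to 276 CPM without DOX. The study reported LSD1 protein there with DOX as comparable to WT ESCs, but with far fewer LSD1 peaks on chromatin. None of the 10 genes was called by edgeR (0.332% of all genes passed), with 5 at an unadjusted p below 0.05, all upward, and DESeq2 called 2. Ddx4 had 21.5, 16.4, 16.2 and 16.0 CPM with DOX, against 9.61, 8.0, 7.45 and 8.56 CPM without DOX, without overlap (1.05 ± 0.24, adjusted p = 0.018). Paired by replicate number, Ddx4 (1.05, adjusted p = 1.51e-05) and Tdrd1 (1.38, adjusted p = 0.00476) were called. Piwil2 had 56.1, 49.4, 46.5 and 43.5 CPM with DOX, against 30.1, 33.6, 35.1 and 32.5 CPM without DOX (0.57 ± 0.13). In LSD1 KO ESCs without the transgene DOX changed no member by edgeR (0.0178% of all genes passed), with 1 at an unadjusted p below 0.05 (Piwil2, upward) and none by DESeq2. There Ddx4 was at 0.43 ± 0.34 and Tdrd1 at 0.91 ± 0.48. Whether the DOX effects differ between the lines was not tested.

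**Figure D3:**
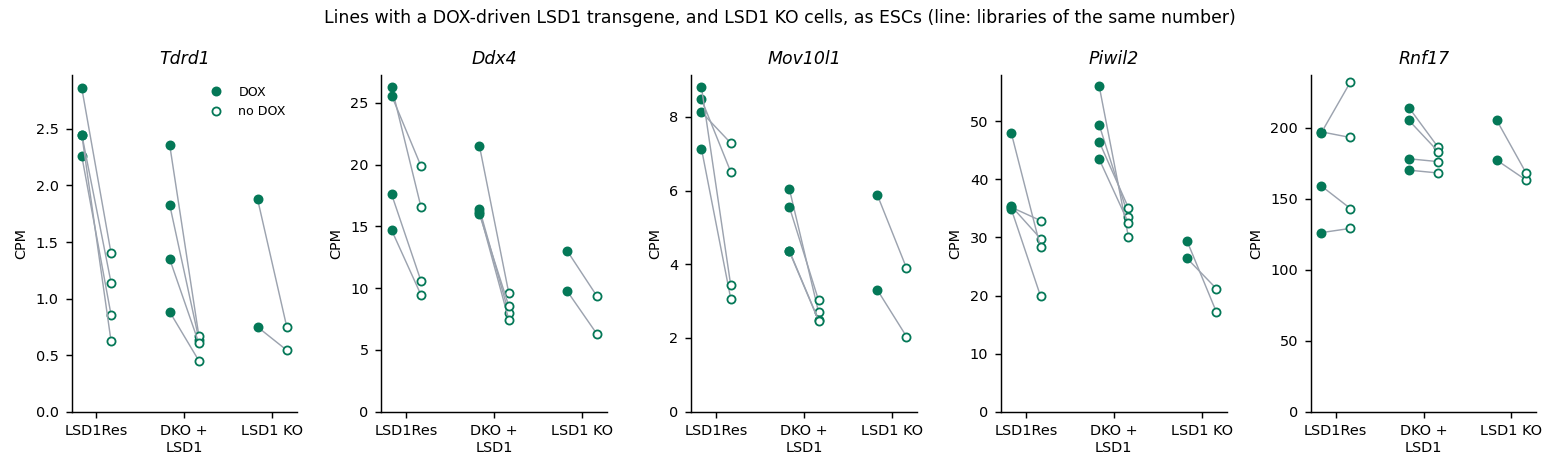
CPM (linear axis) of Tdrd1, Ddx4, Mov10l1, Piwil2 and Rnf17 in each DOX (filled) and noDOX (open) and noDOX library of LSD1Res, DKO + LSD1 and LSD1 KO ESCs, with lines joining libraries of the same replicate number. Tdrd1 with DOX lies above all noDOX libraries in LSD1Res ESCs (2.26 to 2.86 against 0.622 to 1.40 CPM), and Rnf17 overlaps.

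LSD1 KO EBs grown with DMSO gave a second set of libraries for the LSD1 KO comparison in EBs. Of the 10 genes 7 rose over DMSO-treated WT EBs and none fell (18.8% of all genes passed, 11.7% upward). Ddx4 had 23.9 and 16.7 CPM in LSD1 KO EBs with DMSO, against 0.411 and 0.395 CPM in WT EBs with DMSO (5.56 ± 0.30). Tdrd12 had 16.0 and 12.6 CPM in LSD1 KO EBs with DMSO, against 1.93 and 1.56 CPM in WT EBs with DMSO (2.94 ± 0.19, adjusted p = 3.34e-07). Neither gene overlapped. Mov10l1 rose by 5.26 ± 0.47, Tdrd1 by 4.43 ± 0.40, Rnf17 by 4.25 ± 0.16 and Piwil2 by 1.65 ± 0.32. Mael rested on 471 counts in LSD1 KO and 2 counts in WT, a ratio of 238 with a 95% counting interval of 65.4 to 1970. Asz1 had 16 counts in LSD1 KO and 0 in WT, at least 5.38-fold higher when 3 counts are taken as the floor over the WT group, and its adjusted p of 0.0143 did not pass. This bound and the Mael interval treat mates as independent counts, so the bound is too high and the interval too narrow. The naive ESC marker sum was 575 and 614 CPM in LSD1 KO EBs with DMSO, against 92.1 and 110 CPM in WT EBs with DMSO, and its part was not tested.

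A485 moved Tdrd12 in opposite directions in different cultures. In LSD1 KO EBs Tdrd12 had 91.5 and 78.2 CPM with A485, against 16.0 and 12.6 CPM with DMSO, a rise of 2.66 ± 0.17 (adjusted p = 4.8e-07). In LSD1 KO ESCs it had 46.4 and 50.5 CPM with A485, against 152 and 135 CPM with DMSO, a fall of 1.62 ± 0.07 (adjusted p = 9.06e-13). In LSD1 KO FBS cultures it had 5.71 and 6.19 CPM with A485, against 37.2 and 28.2 CPM with DMSO (-2.54 ± 0.47, adjusted p = 0.00694). In LSD1 KO EpiLCs it had 9.35 and 6.35 CPM with A485, against 87.0 and 80.9 CPM with DMSO (-3.53 ± 0.22, adjusted p = 1.13e-05). The A485 and DMSO libraries did not overlap in any of the 4 cultures. The A485 doses differ between cultures, and the difference between cultures was not tested.

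In EBs A485 raised 4 members and lowered none (13.8% of all genes passed and 4.26% rose): besides Tdrd12 these were Piwil2 (21.7 and 21.0 CPM with A485, against 8.23 and 5.34 CPM with DMSO, a change of 1.75 ± 0.30), Mov10l1 (1.63 ± 0.30) and Rnf17 (1.08 ± 0.14). Without DMSO library 2, 1 member was called. The naive ESC marker sum was 1380 and 1400 CPM in LSD1 KO EBs with A485, against 575 and 614 CPM with DMSO, and its part in the result was not tested. In ESCs Tdrd12 was the only member called (17.6% of all genes passed and 11.7% fell), and without A485 library 2 or DMSO library 1 the counts of calls were 3 and 2. The naive ESC marker sum there was 1510 CPM in both A485 libraries, against 3960 and 4030 CPM with DMSO. In FBS cultures Tdrd5 rose (1.01 ± 0.20) and Tdrd12 fell (12.5% of all genes passed, 3.52% upward and 9% downward). Each of these 2 calls rested on few libraries: leaving out A485 library 1 or 2 or DMSO library 1 left 0 calls, and leaving out DMSO library 2 left 1. The naive ESC marker sum was 463 and 481 CPM in LSD1 KO FBS cultures with A485, against 1040 and 1170 CPM with DMSO. The EpiLC marker sum was 168 and 176 CPM with A485, against 758 and 789 CPM with DMSO, and the ectoderm sum 37.4 and 43.3 CPM with A485, against 171 and 202 CPM with DMSO. Their part was not tested. In EpiLCs Mael (-1.89 ± 0.20) and Tdrd12 fell and Tdrd5 (1.09 ± 0.17) rose (17.6% of all genes passed, 7.43% upward and 10.2% downward). The sum of 4 EpiLC markers was 233 and 264 CPM in EpiLCs with A485, against 1470 and 1490 CPM with DMSO, and its part was not tested.

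**Figure D4:**
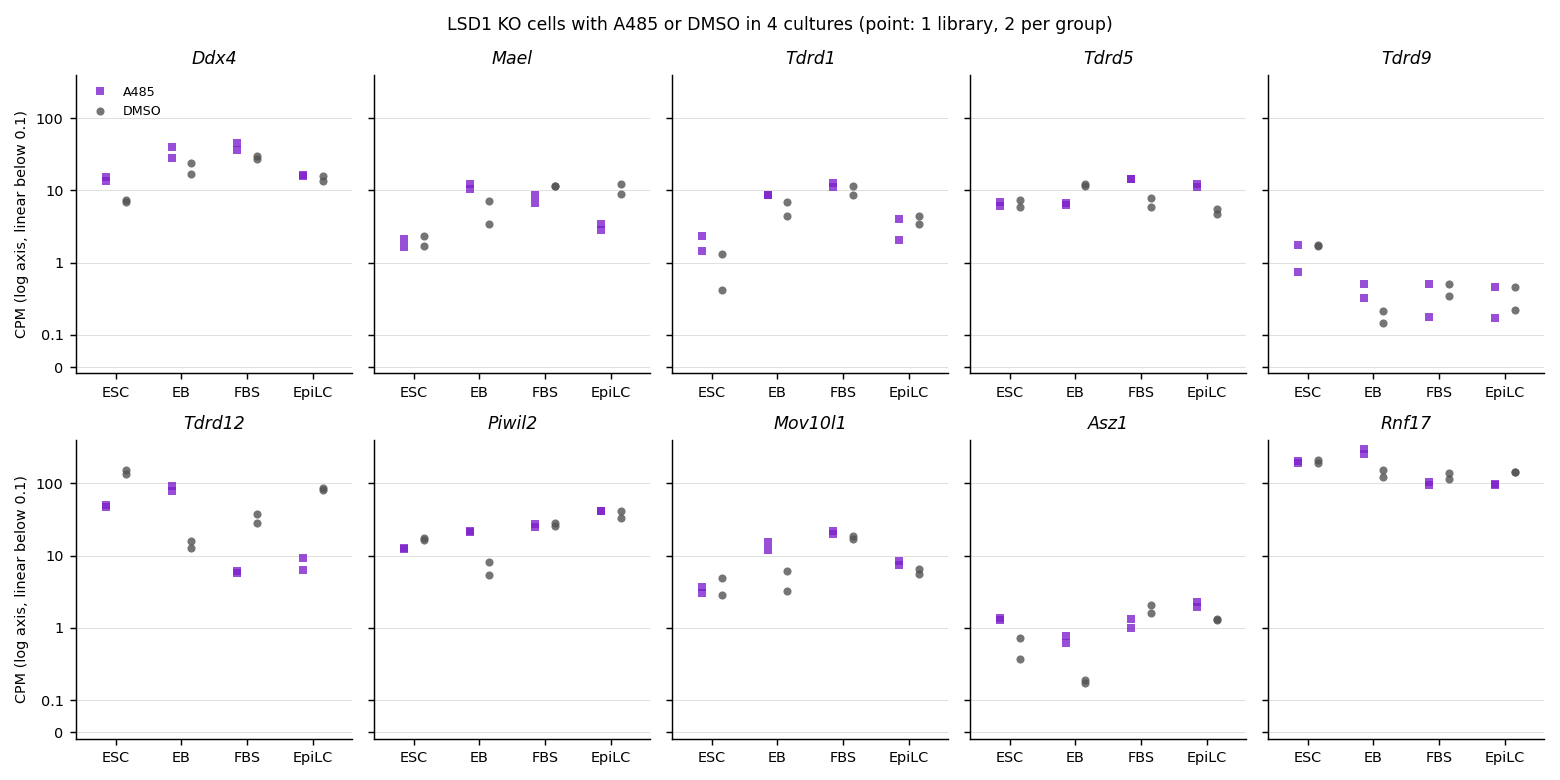
CPM (log scale, linear below 0.1 CPM) of the 10 genes in each A485 (squares) and DMSO (circles) library of LSD1 KO ESCs, EBs, FBS cultures and EpiLCs. Tdrd12 with A485 is above DMSO in EBs (91.5 and 78.2 against 16.0 and 12.6 CPM) and below it in the other 3 cultures.

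In WT cells, Ddx4 and Mov10l1 had higher mean levels in FBS and EpiLC culture than in EBs with DMSO, whereas Tdrd5 had 16.8 CPM in WT FBS cultures, 11.6 CPM in WT EpiLCs and 11.2 CPM in WT EBs with DMSO. Ddx4 averaged 19.0 ± 1.89 CPM in WT FBS cultures, 11.9 ± 1.51 CPM in WT EpiLCs and 0.403 ± 0.0111 CPM in WT EBs with DMSO (SD, n = 2 each), and Mov10l1 averaged 6.04 ± 1.51 CPM in WT FBS cultures, 6.84 ± 0.520 CPM in WT EpiLCs and 0.115 ± 0.0467 CPM in WT EBs with DMSO. These cultures were not compared with a test. In LSD1 KO FBS cultures 4 members rose over WT and 1 fell (9.55% of all genes passed, 6.22% upward and 3.34% downward). Asz1 had 2.05 and 1.60 CPM in LSD1 KO FBS cultures, against 0 and 0.0924 CPM in WT (5.17 ± 0.75), and Rnf17 had 138 and 115 CPM in LSD1 KO, against 39.6 and 31.4 CPM in WT (1.83 ± 0.15). Neither overlapped. Mov10l1 rose by 1.56 ± 0.19 and Piwil2 by 1.49 ± 0.16, and Tdrd5 fell by 1.31 ± 0.20. LSD1 CI FBS cultures had Asz1 (3.83 ± 0.78) and Mov10l1 (1.52 ± 0.19) higher (2.99% of all genes passed and 2.41% rose).

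In LSD1 KO EpiLCs Asz1 (2.09 ± 0.45) and Rnf17 (1.26 ± 0.08) rose over WT, and Tdrd1 (-1.05 ± 0.26) and Tdrd5 (-1.23 ± 0.17) fell (9.49% of all genes passed, 6.82% upward and 2.66% downward). Tdrd1 had 4.44 and 3.37 CPM in LSD1 KO EpiLCs, against 7.82 and 7.76 CPM in WT EpiLCs, the opposite order to that in EBs. Without WT library 1, 2 members were called. In LSD1 CI EpiLCs Tdrd12 alone rose, with 118 and 135 CPM in LSD1 CI against 64.8 and 45.3 CPM in WT (1.23 ± 0.19, 2.15% of all genes passed and 1.61% rose), and no member was called without either LSD1 CI library. Naive ESC marker sums were 947 and 978 CPM in LSD1 KO EpiLCs, against 549 and 611 CPM in WT EpiLCs, and 1040 and 1170 CPM in LSD1 KO FBS cultures, against 661 and 672 CPM in WT, and their part was not tested.

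The 10 genes did not share a single profile. Over the 34 group means on a log2 scale, Pearson's r was 0.94 between Ddx4 and Mov10l1, 0.90 between Mael and Mov10l1 and 0.89 between Ddx4 and Mael. It was 0.78 between Piwil2 and Asz1, and -0.66 between Tdrd5 and Tdrd12. These are descriptions, since the groups share genotypes, cultures and library depth. Among 16444 other genes, Pramel1 (r = 0.94), Ccdc36 (0.91) and H2bc1 (0.90) had the profiles most like the mean of the 10. For single members the most like genes were Hsf2bp for Tdrd12 (0.96), Prr23a3 for Rnf17 (0.95), Myrip for Tdrd1 (0.94), Gab1 for Piwil2 (0.93), Adad2 for Mael (0.92), Ccdc172 for Asz1 (0.92), H2ac1 for Mov10l1 (0.90) and for Ddx4 (0.87), Lsr for Tdrd5 (0.88) and H2-DMb1 for Tdrd9 (0.83). The histone genes of the H2A and H2B families have near-identical copies, so their counts are uncertain.

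**Figure D5:**
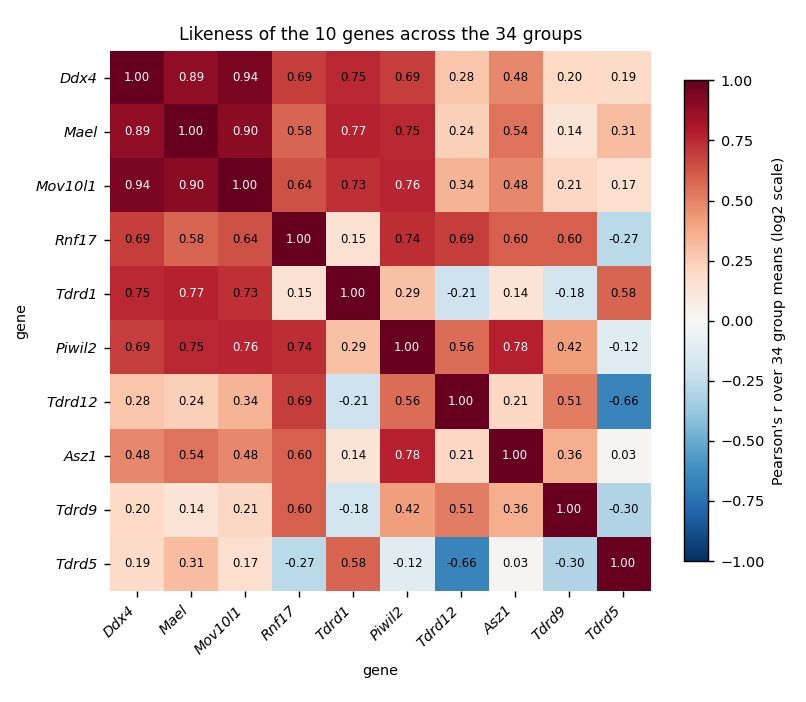
Pearson's r between each pair of the 10 genes over the 34 group means (log2 scale); each cell is a pair and the colour runs over -1 to 1. Ddx4, Mael and Mov10l1 form a block of 0.89 to 0.94, and Tdrd12 and Tdrd5 stand at -0.66.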

How the data were processed

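The authors deposited raw read counts per gene for rRNA-depleted, stranded, paired-end libraries. Trim Galore trimmed the reads, STAR (version 2.7.9a) placed them on mm9, Picard (version 2.25.5) took out duplicates, and reads per gene were counted by strand with featureCounts, per the study's methods and the labels. Mates appear to have been counted separately, since 72.2% to 84.7% of low counts were even. Groups came from the sample labels. Counts were tested with edgeR 4.0.16 (TMM scaling, filterByExpr, robust quasi-likelihood F test, R 4.3.3) over the groups of a culture together, with Benjamini-Hochberg adjustment over all genes tested. Members were called at an adjusted p under 0.01 with a log2 change of more than 1 in size. CPM used all counts of a library and RPKM added the listed exon length. The 10 genes and all lists were chosen with earlier results of these data known, so no list carries a test of its own. Called members were named, and the others were given by their counts or by chosen values.

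Alternatives were DESeq2 1.42.0, its size factors in edgeR, no filter on low counts, the compared groups alone, a replicate block, halved counts, alignment batch terms and leaving out libraries. Replicate numbers were taken to pair libraries where all same-numbered pairs correlated above 0.1 over at least 3 pairs: LSD1Res (r = 0.63 to 0.69), DKO + LSD1 (0.57 to 0.65) and MLL4 KO;LSD1 KO against MLL4 KO;LSD1 CI (0.15 to 0.41). Of 187 pairs of libraries within groups, none was identical. The counting intervals cover counting error only. They and the bound from 3 counts treat each count as independent. Mates counted separately would make the intervals too narrow and the bound too high. On simulated counts the test recovered the changed genes, but only well-counted genes with large changes were simulated. This was done for LSD1 KO in EBs and for its interaction with culture. Recovery at low counts or near the fold limit was not tested.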

Additional observations from a re-analysis of the deposited data

Results flagged for a closer look

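In 8 of 150 checks, each of 1 gene in 1 group of 4 to 7 libraries, 1 library stood apart from the rest of its group, where chance gives about 1 in 20. The WT ESC group of 11 libraries was not checked. Ddx4 was at 21.5 CPM in DKO + LSD1 library 1 with DOX (next 16.4 CPM). Tdrd1 was low at 8.52 CPM in RCOR1/2 DKO EB library 2 (next 10.8), at 0.462 CPM in RCOR1 KO EB library 3 (next 1.01) and at 0.184 CPM in WT EB library 4 (next 0.451). Tdrd5 was at 18.8 CPM in RCOR1 KO EB library 1 (next 10.7). Piwil2 was at 48.0 CPM in LSD1Res library 4 with DOX (next 35.4). Asz1 was at 0.0582 CPM in LSD1 CI EB library 1 and at 0.0558 CPM in RCOR1 KO EB library 2, with the other libraries of each group at 0.

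The mutant effect differed between EBs and ESCs by an interaction term in edgeR. For LSD1 KO the differences in log2 fold change (EB minus ESC) were 4.55 for Ddx4, 7.26 for Mael, 3.40 for Tdrd1, 2.10 for Tdrd12, 5.76 for Mov10l1 and 2.38 for Rnf17. For RCOR1/2 DKO they were 5.88 for Ddx4, 7.06 for Mael, 4.79 for Tdrd1, 6.49 for Tdrd12, 2.25 for Piwil2, 6.97 for Mov10l1 and 3.30 for Rnf17. In every EB library of these mutants the naive ESC marker sum was above the WT EB range, and its part was not tested.

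Tdrd12 changed with A485 by 2.66 in EBs and by -1.62 in ESCs, -2.54 in FBS cultures and -3.53 in EpiLCs, all in LSD1 KO cells. The 2 libraries of each arm stood apart in each culture, and the difference between cultures was not tested.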

How the results depend on the processing

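None of the 106 member calls reversed. They were lost in 39 of 695 checks by other settings and in 51 of 416 checks that left out a library. Counts of called members moved as follows. DESeq2 called 4 in LSD1 CI ESCs (2 by edgeR), 1 in LSD1Res with DOX and 2 in DKO + LSD1 with DOX (0 each by edgeR). With only the compared groups fitted, the counts were 1 in LSD1 CI ESCs, 2 in MLL4 KO ESCs (6 before), 1 in MLL4 KO;LSD1 KO ESCs, 0 for MLL4 KO;LSD1 CI against MLL4 KO, 1 in LSD1 CI EBs (3 before), 1 in DKO + LSD1, 1 in LSD1 CI FBS cultures and 0 in LSD1 CI EpiLCs. With the replicate block the counts were 1 in LSD1 CI ESCs, 2 in MLL4 KO, 1 in MLL4 KO;LSD1 KO and 0 in MLL4 KO;LSD1 CI ESCs against WT, 0 in LSD1 CI EBs, 2 in RCOR2 KO EBs, 1 in LSD1Res, 2 in DKO + LSD1 and 2 for A485 in ESCs. The numbers pair the libraries only in LSD1Res, DKO + LSD1 and MLL4 KO;LSD1 KO against MLL4 KO;LSD1 CI. Without the low-count filter A485 gave 2 calls in ESCs and 0 in FBS cultures. The alignment batch term left 1 call in LSD1 KO ESCs, as did WT libraries of that batch alone, and 0 between LSD1 KO and LSD1 CI ESCs. The cause of these shifts was not tested.

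Leaving out 1 library gave 1 to 2 calls in LSD1 CI ESCs, 3 to 4 in MLL4 KO, 1 to 2 in MLL4 KO;LSD1 KO, 0 to 1 for MLL4 KO;LSD1 CI against MLL4 KO, 1 to 2 in LSD1 CI EBs and 3 to 5 in RCOR2 KO EBs. For A485 it gave 1 to 3 in ESCs, 1 to 6 in EBs and 0 to 1 in FBS cultures, and it gave 2 to 3 in LSD1 KO EpiLCs and 0 to 1 in LSD1 CI EpiLCs. Where 1 library was left in a group, it was assumed to vary like the other groups. RCOR1/2 DKO EBs stayed at 8 in all such runs. Asz1, Tdrd9 and Tdrd1 in ESCs, and Mael in the MLL4 mutant ESCs, rest on few counts, and small changes there are not detectable at this depth.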

Other observations

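Expression of the 10 genes was also set beside listed repressors of germline genes. In RCOR1/2 DKO EBs 2 of 17 rose over WT EBs, where 14.1% of all genes rose, and none fell. They were Dnmt3a (2.05 ± 0.09), a DNA methyltransferase, and L3mbtl2 (1.40 ± 0.10), a partner of E2F6 and MGA. In MLL4 KO ESCs 1 of 17 fell, Dnmt3b (-1.84 ± 0.29), where 6.85% of all genes fell. Neither count was above the share of all genes.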
